A study of Mus musculus with 16 samples.

Results

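The response of liver to Wy14643 in mice that lack PPARα was measured on 8 of the 16 arrays of the series. These were all 4 arrays of PPARα-null mice (strain 129S4/SvJae) fed Wy14643 and all 4 arrays of PPARα-null mice fed control food. Every probe set other than the manufacturer's controls was compared, 45037 in all. Both groups were males of 12 to 20 weeks, and both carried the null allele in every cell of the body. The treated group received 0.1% Wy14643 in its food for 5 days, and the control group the normal food over the same time. Each array held the liver RNA of 1 mouse on the Affymetrix mouse genome 430 2.0 platform. The other 8 arrays held wild-type livers (strain 129S1/SvImJ) of the same sex, age and diets, 4 on each food, and are used here only to set the wild-type response beside that of the knockout. Genotype and substrain cannot be told apart in that comparison. The hour at which the livers were taken is not given in the sources used here.

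Wy14643 is a synthetic ligand of PPARα, a nuclear receptor that binds DNA as a heterodimer with RXR and switches on genes of fatty acid oxidation in hepatocytes. Related receptors, PPARβ/δ (gene Ppard) and PPARγ (gene Pparg), bind similar DNA elements and are also present in rodents. Comparing treated with untreated knockout livers therefore asks which transcripts differ with the compound, or with eating the food that contains it, when the main receptor is missing. All levels below are log2 intensities of a probe set, and a difference is the mean of the 4 treated arrays minus the mean of the 4 control arrays on that scale, so that 1 is a doubling. Where several probe sets measure a gene, the one brightest on average over the 16 arrays stands for it.

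Array 4 of the treated knockout group stood apart from the others. It correlated with the other knockout arrays at 0.985 to 0.988 over all probe sets, and the other 7 among themselves at 0.991 to 0.995. Within the treated group it was the array farthest from the group mean for 37.7% of the probe sets, against 19.5% to 21.6% for the other 3. Its median intensity was 4.72 and those of the other knockout arrays 4.45 to 4.54. Results are therefore also given without it. Hepatocyte markers summed to 93471 to 96191 (linear intensity) on the treated arrays and to 94308 to 97005 on the control arrays, with a ratio of means of 0.988 (exact two-sided permutation test, p = 0.286). Of 13 marker lists for cell types, only the B cell and plasma cell list had sums that did not overlap, 1164 to 1258 on Wy14643 and 1328 to 1453 on control food, with p = 0.0286, the smallest that 4 against 4 arrays allow in the exact permutation test. That sum was mostly Sdc1, which hepatocytes express as well (difference -0.16). The Kupffer cell list had a ratio of 0.902 with overlapping sums (exact permutation p = 0.229). Only 1 of its 16 markers had a positive difference, with a median of -0.19, and 0 were lower without overlap, or 2 without array 4 of the treated group. The other 11 lists had ratios of 0.929 to 1.07. Of the T and NK cell markers 10 of 13 had a mean at or below the highest array median, as did 9 of 11 for neutrophils and monocytes. In bulk liver, fewer cells of a type and less RNA per cell cannot be told apart.

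Few probe sets passed the test. At an adjusted p under 0.01 and a fold over 1.5, 6 of 45037 probe sets were called, or 0.0133%. All 6 were higher on Wy14643 and 0 were lower, although 1980 probe sets were higher and 2174 lower at an unadjusted p under 0.05. With an adjusted p under 0.05 and the same fold, 28 probe sets passed (0.0622%), 21 higher and 7 lower. In wild-type mice 2630 probe sets rose and 2171 fell under the stricter rule, together 10.7%, and 7.04% differed between the genotypes in their response. Leaving out array 4 of the treated knockouts gave 8 called probe sets, all higher. The count was sensitive to single arrays: it was 2 without array 3 of the controls or array 1 of the treated group, 10 higher and 1 lower without array 2 of the treated group, and 3 higher and 1 lower without array 3 of that group.

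Of the 6 called probe sets, 4 belonged to single genes of fatty acid or fatty aldehyde oxidation, 1 was annotated to more than 1 gene and is not named here, and 1 was the clock gene Ciart. Acaa1b encodes a peroxisomal 3-ketoacyl-CoA thiolase, which performs the last step of a turn of β-oxidation. It read 11.09, 11.23, 10.89 and 11.10 on the control arrays and 12.23, 11.99, 12.34 and 12.32 on the Wy14643 arrays. The treated arrays all lay above the controls, with a difference of 1.14 (SE 0.11, adjusted p = 2.95e-04) and a 2.2-fold higher mean. Acaa1b has a close paralogue, Acaa1a, and transcripts so alike may share probes. The Acaa1a probe set differed by 0.27 (adjusted p = 0.367), also without overlap.

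Aldh3a2 encodes the microsomal fatty aldehyde dehydrogenase, which oxidizes long-chain aldehydes to fatty acids. Its control arrays read 7.29, 7.33, 6.86 and 7.59 and its treated arrays 8.46, 8.07, 8.58 and 8.62. The groups did not overlap, and the mean rose by 1.16 (SE 0.16, adjusted p = 0.00805). Ech1 encodes a dienoyl-CoA isomerase of peroxisomes and mitochondria that is needed for unsaturated fatty acids. It read 8.19, 8.20, 8.01 and 8.14 on control food and 8.97, 8.81, 8.85 and 9.06 on Wy14643, a rise of 0.78 (SE 0.09, adjusted p = 0.00121). Acadl encodes the long-chain acyl-CoA dehydrogenase of mitochondria. It read 9.06, 9.0, 8.97 and 8.96 on control food against 9.77, 9.57, 9.80 and 9.48, a rise of 0.66 (SE 0.09, adjusted p = 0.00805) with no overlap.

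The strength of these calls was unequal. Leaving out each of the 8 arrays in turn, Acaa1b and Ciart were called in 8 of 8 refits, Ech1 in 6, Aldh3a2 in 2 and Acadl in 1. The differences themselves moved little, between 0.61 and 0.72 for Acadl and between 1.03 and 1.28 for Aldh3a2. Without array 4 of the treated group the differences were 1.11 for Acaa1b (adjusted p = 0.00195), 1.10 for Aldh3a2 (adjusted p = 0.0322), 0.74 for Ech1 (adjusted p = 0.00325) and 0.72 for Acadl (adjusted p = 0.00325). In a fit of the 8 knockout arrays alone 1 probe set was called, that of Ciart. The same probe set alone passed a test that asks for a fold beyond 1.5 (limma's treat), there at an adjusted p under 0.05. Acadl has a second, dim probe set with a difference of -0.01 (adjusted p = 0.983).

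Eci2 and Slc25a20 passed only the looser threshold. Eci2, an enoyl-CoA isomerase of peroxisomes, read 8.66, 8.45, 8.59 and 8.60 on control food and 9.24, 9.0, 9.44 and 9.38 on Wy14643. The difference was 0.69 (adjusted p = 0.0141), with no overlap. Slc25a20, the mitochondrial carnitine-acylcarnitine carrier, read 7.56, 7.49, 7.58 and 7.72 against 8.24, 8.02, 8.0 and 8.29, a difference of 0.55 (adjusted p = 0.046) that stood just under 1.5-fold. It was the other probe set of Slc25a20 that passed, with 0.77 (adjusted p = 0.037). Creb3l3, a transcription factor of the endoplasmic reticulum membrane that acts on lipid genes in liver, differed by 0.57 (adjusted p = 0.0406), from a mean of 9.25 to 9.83, and fell short of the fold of 1.5.

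**Figure D1:**
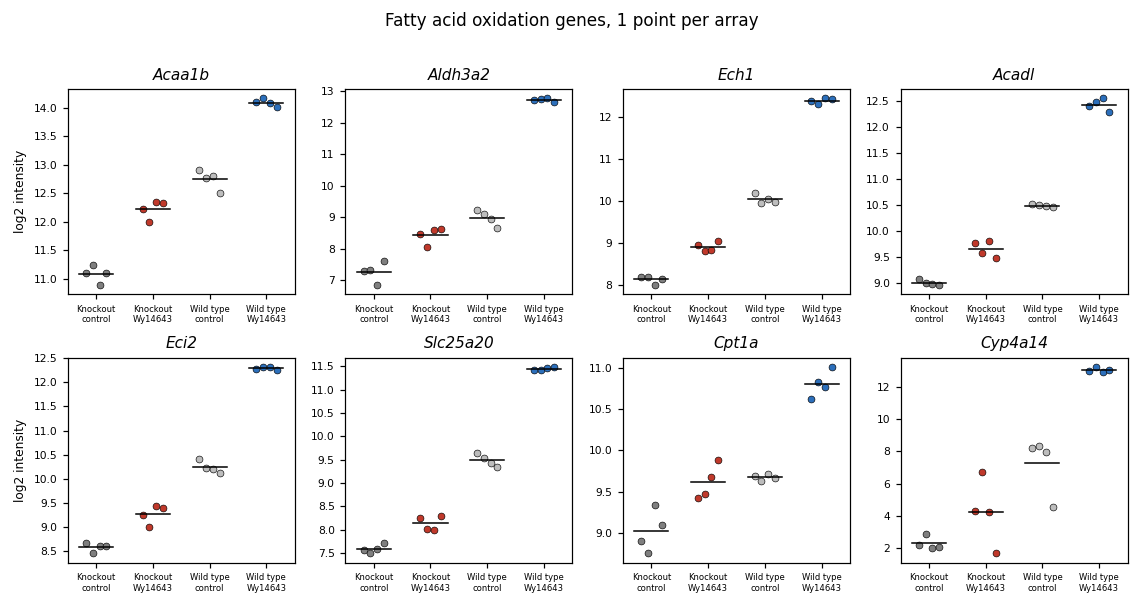
Log2 intensity of 8 genes of fatty acid oxidation on each of the 16 arrays, with 1 panel per gene, 1 point per array in order of replicate number (which carries no order) and a line at the group mean. In 7 panels the 4 treated knockout arrays lie above the 4 knockout controls, while in the panel of Cyp4a14 array 4 of the treated knockouts, at 1.65, lies below them, and in every panel the treated wild-type arrays are the highest.

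The list of mitochondrial oxidation and ketogenesis genes leaned the same way. Of its 27 measured genes 10 had treated arrays that all lay above the controls and 0 had the reverse, and the median difference was 0.20. Over all 18193 genes 3.68% were higher without overlap and 2.7% lower, with a median difference of 0.01. Among the 5170 genes with a mean above 6, these shares were 6.09% and 5.42%. Only Acadl of this list was called. Slc22a5, the plasma membrane carnitine carrier, differed by 0.71 (adjusted p = 0.0936). Cpt1a, the carnitine palmitoyltransferase that controls entry of fatty acids into mitochondria, differed by 0.59 (adjusted p = 0.102). Eci1, the mitochondrial enoyl-CoA isomerase, differed by 0.40 (adjusted p = 0.0931). Acaa2, Acadvl, Acadm, Decr1 and Etfb were also higher without overlap, by 0.14 to 0.26. Hadha, the trifunctional protein subunit, was at 0.00 (95% CI -0.16 to 0.17). Without array 4 of the treated group, 12 of the 27 were higher without overlap and 0 lower, where 5.37% and 3.88% of all genes were.

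Of 28 genes of peroxisomal oxidation 7 were higher without overlap and 3 lower (all genes 3.68% and 2.7%), with a median difference of 0.09. Acaa1b and Ech1 were called, and Acot3, a peroxisomal acyl-CoA thioesterase, had the largest difference of the list. Acot3 read 3.96, 3.97, 3.78 and 4.21 on control food and 4.65, 4.87, 6.14 and 6.01 on Wy14643, a difference of 1.44 (adjusted p = 0.0596) with a wide spread among the treated arrays. Ehhadh, the bifunctional peroxisomal enzyme, differed by 0.38 (adjusted p = 0.486). Crat, carnitine acetyltransferase, differed by -0.37 (adjusted p = 0.378) and Hacl1, which shortens branched acids, by -0.34 (adjusted p = 0.247), both without overlap. Acot5, the third that was lower, lay near the array medians in all 8 arrays. Of 18 peroxisome biogenesis genes 5 were higher without overlap and 0 lower, and 8 were higher without array 4 of the treated group. Among these, Pex26 differed by 0.57 (adjusted p = 0.266), Pex19 by 0.35 (adjusted p = 0.198) and Pex11a, which drives peroxisome division, by 0.30 (adjusted p = 0.212). Of 11 Cyp4 and ω-oxidation genes 2 were higher without overlap, Aldh3a2 and the dim Cyp4a31 (0.61, adjusted p = 0.354). Cyp4a14, a fatty acid ω-hydroxylase, read 2.19, 2.89, 1.96 and 2.06 on control food and 4.26, 6.73, 4.23 and 1.65 on Wy14643. The treated arrays 1 to 3 were above every control and array 4 was below every control, and the difference was 1.95 (95% CI 0.17 to 3.72, adjusted p = 0.495).

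Apart from Acaa1b, the oxidation genes that passed either threshold responded less than in wild-type livers. Ech1 rose by 2.35 in wild type and the responses differed by 1.57 (adjusted p = 9.29e-08). The corresponding values were 3.75 and 2.59 for Aldh3a2 (adjusted p = 2.52e-07), 1.95 and 1.29 for Acadl (adjusted p = 1.30e-06), 2.06 and 1.37 for Eci2 (adjusted p = 2.63e-06) and 1.97 and 1.42 for Slc25a20 (adjusted p = 8.78e-07). Acaa1b rose by 1.35 in wild type, and the responses differed by 0.21 (SE 0.15, adjusted p = 0.475). That gene started from a mean of 12.74 on wild-type control arrays and 11.08 on knockout control arrays, so the treated knockout mean of 12.22 remained below the untreated wild-type mean. The same held for the treated knockout means of Aldh3a2, Ech1, Acadl, Eci2 and Slc25a20, at 8.43, 8.92, 9.66, 9.27 and 8.13, against untreated wild-type means of 8.98, 10.05, 10.49, 10.24 and 9.49. Creb3l3 differed by 0.61 in wild type, with a difference of responses of 0.03 (adjusted p = 0.93).

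The genes that responded most in wild-type mice had small differences in the knockout for the most part. The 20 genes with the largest called increases in wild type rose by 5.71 to 8.31 there. In the knockout their median difference was 0.16, and 13 of the 20 had a 95% CI that included 0. For 9 of the 20 neither knockout mean exceeded the highest of the array medians. The interaction test was passed by 19 of the 20, and by 1820 of all 18193 genes. It contains the wild-type difference by which the 20 were chosen, so its outcome was largely set in advance. Fabp3, a fatty acid binding protein of muscle, rose by 8.31 in wild type and was at 0.18 (95% CI -0.18 to 0.55) in the knockout. Cidec, a lipid droplet protein, rose by 6.33 and was at -0.01 (95% CI -0.35 to 0.34). Vnn1, a pantetheinase just outside the 20, rose by 5.35 and was at 0.09 (95% CI -0.27 to 0.46). Of all genes 3.68% were higher without overlap in the knockout and 2.7% lower. The 3 of the 20 that were higher without overlap in the knockout were Acot3, Cyp4a31 and Mogat1 (0.27, adjusted p = 0.46). The 1 that was lower was Pdk4, a kinase that turns off pyruvate dehydrogenase. It rose by 7.34 in wild type, while the knockout arrays read 8.82, 6.40, 6.53 and 6.58 on control food and 5.56, 5.54, 4.47 and 5.23 on Wy14643. The difference was -1.88 (adjusted p = 0.223), and the responses differed by 9.22 (adjusted p = 9.90e-08).

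Across the genome, genes called in wild type leaned the same way in the knockout. Of 1405 genes called higher in wild type, 9.47% were higher without overlap in the knockout and 2.85% lower. Of 1226 genes called lower in wild type, 9.54% were lower without overlap and 3.83% higher. Over all genes 3.68% were higher without overlap in the knockout and 2.7% lower. Restricted to genes with a mean above 6, 14.2% of 639 and 10.7% of 822 moved the same way, and 3.13% and 4.14% the opposite way. Among all genes with a mean above 6, 6.09% were higher without overlap and 5.42% lower. The median knockout differences of the 1405 and the 1226 genes were small, at 0.03 and -0.06. The contrasts share no arrays, but they share the estimate of the spread. Of the 28 probe sets of the looser threshold, 15 were called in wild type in the same direction, 53.6% of that list and 0.312% of the 4801 called in wild type, and 3 in the opposite direction. Of all probe sets 10.7% were called in wild type.

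**Figure D2:**
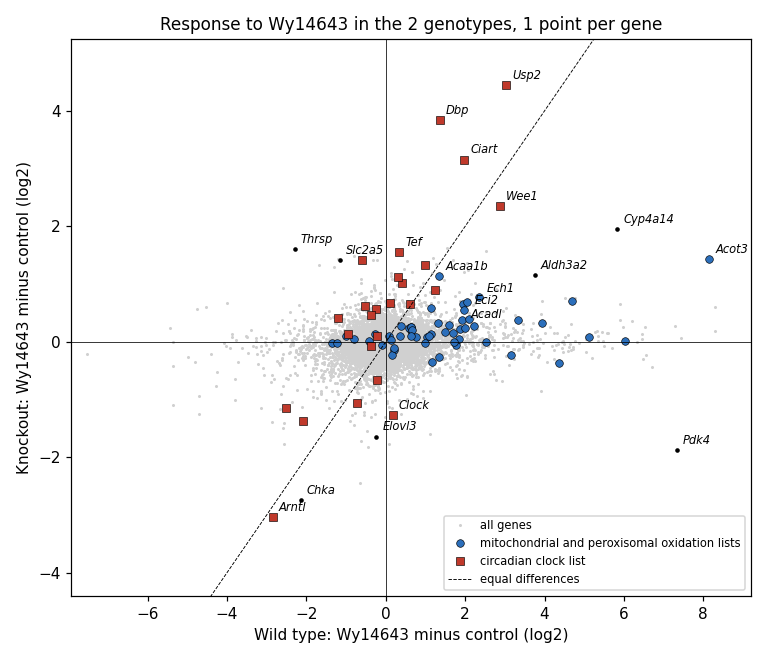
Difference between Wy14643 and control food in wild-type liver (horizontal, log2) and in knockout liver (vertical, log2) for 18193 genes, with the oxidation lists in blue, the clock list in red and the line of equal differences dashed. Black points are other genes named in the text. The genes of the mitochondrial and peroxisomal oxidation lists (blue) spread to the right, with knockout differences of at most 0.78 apart from Acot3 and Acaa1b, whereas Usp2, Dbp, Ciart and Tef lie above the dashed line and Arntl close to it.

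The receptors themselves were measured on the same arrays. The knockout label could not be tested by the Ppara probe sets, because their position relative to the deleted part is not given in the sources used here. The brightest Ppara probe set read 9.15, 8.82, 9.48 and 9.71 on knockout control arrays and 9.35, 9.47, 9.68 and 10.04 on Wy14643, against a wild-type control mean of 9.92. Its difference in the knockout was 0.34 (adjusted p = 0.559). The other Ppara probe sets differed by 0.62 (adjusted p = 0.0922), without overlap, and by 0.19 (adjusted p = 0.801). Their knockout control means were 7.68 and 6.17, against wild-type control means of 9.05 and 7.76. Ppard differed by -0.15 (95% CI -0.52 to 0.22, adjusted p = 0.854) at a dim level. Pparg differed by 0.62 (95% CI 0.09 to 1.14, adjusted p = 0.449), from a mean of 4.13 to 4.75, with overlap. Of 33 nuclear receptors and coregulators 3 were higher without overlap and 2 lower (all genes 3.68% and 2.7%), or 5 and 3 without array 4 of the treated group. Ppargc1b, a coactivator of mitochondrial genes, read 6.11, 5.25, 5.33 and 5.16 against 6.89, 6.61, 6.61 and 6.77, a difference of 1.26 (adjusted p = 0.0561). Esr1, the oestrogen receptor, differed by -0.62 with overlap (adjusted p = 0.184). Angptl4, a secreted inhibitor of lipoprotein lipase and a target of PPARs, differed by 1.25 (adjusted p = 0.303) without overlap. Of 26 other PPAR targets, 5 were higher without overlap and 1 lower.

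Clock genes showed the largest differences of all. The liver clock is driven by the activators CLOCK, NPAS2 and BMAL1 (gene Arntl), which bind E-box elements and switch on their own repressors. These include the PER and CRY proteins, CIART and the nuclear receptors NR1D1 and NR1D2. Output factors of the same circuit, DBP, TEF and HLF, bind D-box elements, where NFIL3 competes with them. Transcript levels of these genes therefore swing over the day. Of 25 measured members of the clock list, 12 were higher without overlap (48%) and 6 lower (24%), where 3.68% and 2.7% of all genes were. Only Ciart was called.

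Ciart, a repressor of the clock activators, read 2.66, 2.53, 2.88 and 3.20 on control food and 5.56, 5.92, 5.85 and 6.56 on Wy14643. It is named although its higher mean, 5.97, lay just under the level of 6 asked of other genes. It rose by 3.16 (SE 0.31, adjusted p = 2.95e-04), or 8.92-fold, and by 2.96 without array 4 of the treated group (adjusted p = 0.00195). Usp2, a deubiquitinase under clock control, read 2.40, 3.06, 3.82 and 5.15 against 7.25, 7.18, 8.68 and 9.12. The difference of 4.45 had an adjusted p of 0.0606. A dimmer Usp2 probe set passed the looser threshold with 3.54 (adjusted p = 0.046). Dbp read 5.53, 5.34, 7.83 and 8.61 against 10.31, 10.28, 10.94 and 11.14, a difference of 3.84 (adjusted p = 0.0922). All these treated arrays lay above all controls, but the control arrays spanned more than 2 log2 units for Usp2 and for Dbp.

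Tef read 7.20, 7.36, 7.70 and 8.08 on control food and 8.79, 8.87, 9.37 and 9.54 on Wy14643, a difference of 1.56 (adjusted p = 0.0496). Wee1, a mitotic kinase under clock control, differed by 2.35 (adjusted p = 0.0969). Among the repressors, Per2 differed by 1.41 (adjusted p = 0.26), Per3 by 1.12 (adjusted p = 0.24), Nr1d2 by 0.68 (adjusted p = 0.165) and Cry2 by 0.57 (adjusted p = 0.326), each without overlap. A second Per3 probe set passed the looser threshold with 1.46 (adjusted p = 0.0303). Hlf read 7.23, 7.25, 7.02 and 7.33 against 7.80, 7.90, 7.90 and 7.82, with a difference of 0.65 (adjusted p = 0.089). Per1 differed by 1.01 (adjusted p = 0.426) and Nr1d1 by 0.14 (adjusted p = 0.962), both with overlap.

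The activators lay on the other side. Arntl read 6.23, 5.82, 3.73 and 4.63 on control food and 2.88, 2.04, 1.61 and 1.75 on Wy14643, a difference of -3.03 (adjusted p = 0.111) with no overlap. Clock read 7.27, 7.10, 7.09 and 7.15 against 6.70, 6.16, 5.71 and 4.94, a difference of -1.27 (adjusted p = 0.125), and without array 4 of the treated group it was -0.96. Npas2 was dim on all arrays (difference -0.67, adjusted p = 0.1). Nfil3 differed by -1.37 (adjusted p = 0.214) and Cry1 by -1.07 (adjusted p = 0.333), also without overlap. By role, 3 of 3 activators were lower without overlap, 6 of 10 repressors higher and 1 lower, and 5 of 6 outputs higher and 1 lower. Of all genes 3.68% were higher without overlap and 2.7% lower. Without array 4 of the treated group the clock list again gave 12 higher and 6 lower, where 5.37% and 3.88% of all genes were.

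**Figure D3:**
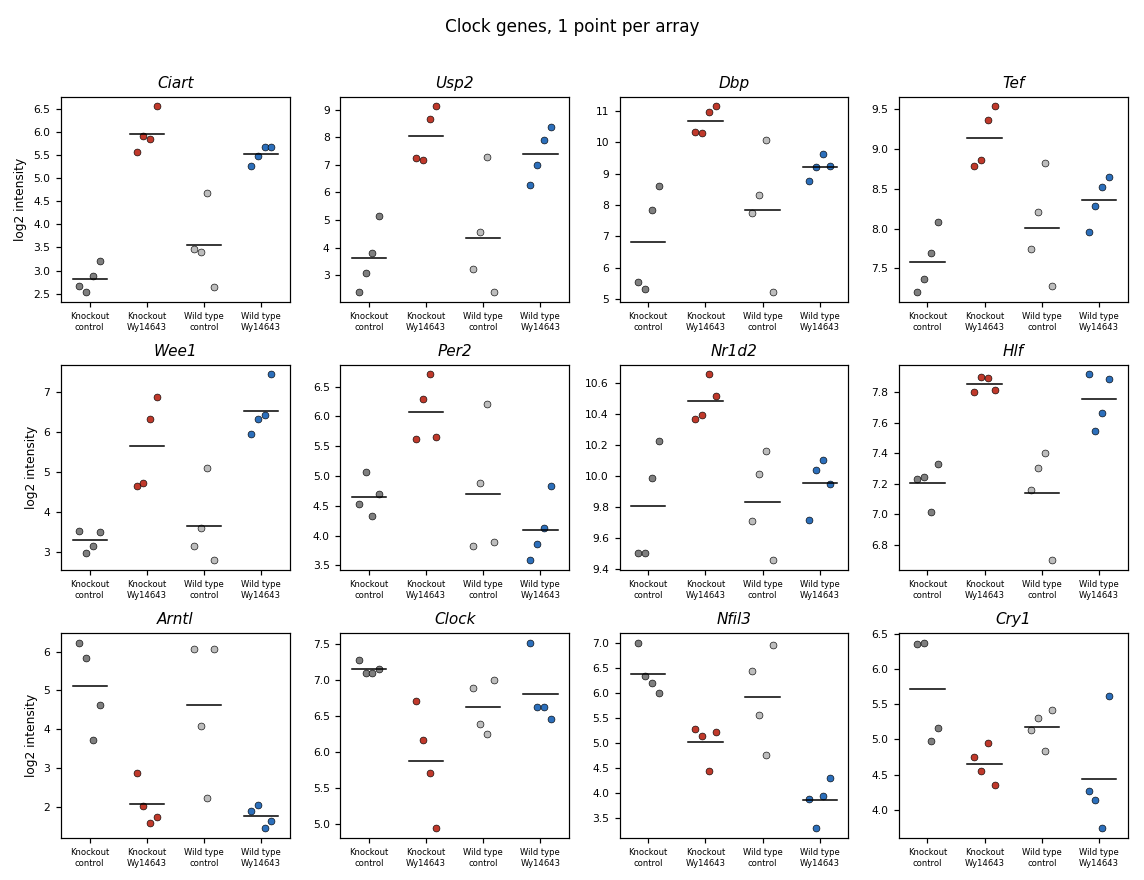
Log2 intensity of 12 clock genes on each of the 16 arrays, with 1 point per array and a line at the group mean. In the knockout groups the treated arrays lie above the controls for the 8 genes of the upper rows of panels and below them for Arntl, Clock, Nfil3 and Cry1, and the wild-type control arrays spread over most of the range of the knockout groups for Dbp and Arntl.

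The wild-type arrays showed part of this pattern. Ciart rose by 1.98 in wild type (adjusted p = 1.16e-04) and Wee1 by 2.87 (adjusted p = 3.58e-04), while Nfil3 fell by 2.08 (adjusted p = 4.15e-04) and Arntl fell by 2.85 (adjusted p = 0.00516). Usp2 rose by 3.03 in wild type (adjusted p = 0.0152), and its dimmer probe set by 2.10 (adjusted p = 0.0208). Dbp differed by 1.37 (adjusted p = 0.283), Tef by 0.34 (adjusted p = 0.473) and Clock by 0.17 (adjusted p = 0.766) in wild type. The other Tef probe sets differed there by 1.04 (adjusted p = 0.0488) and 0.21 (adjusted p = 0.378). The difference of responses was -1.18 for Ciart (adjusted p = 0.0983), -1.42 for Usp2 (adjusted p = 0.552), -2.47 for Dbp (adjusted p = 0.197) and 0.18 for Arntl (adjusted p = 0.942). For Clock it was 1.45 (adjusted p = 0.0303). The other Clock probe sets gave 0.66 (adjusted p = 0.202), 0.94 (adjusted p = 0.16) and 0.63 (adjusted p = 0.297). Per2 differed by -0.61 in wild type (adjusted p = 0.379), and its responses differed by -2.02 (adjusted p = 0.0323). Its other probe sets gave -1.28 (adjusted p = 0.0874) and -1.72 (adjusted p = 0.0183). Of the 25 genes only Bhlhe40 passed the interaction test, with 0.41 in the knockout (adjusted p = 0.631) and -1.21 in wild type (adjusted p = 8.07e-04). Among the untreated wild-type arrays Dbp ranged from 5.22 to 10.08 and Arntl from 2.23 to 6.08, so single untreated livers spanned most of the difference between the knockout groups. The hour of collection was not tested as a source, since no label gives it.

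Promoter windows of 300 bases, which reach 50 bases past the start of transcription (RefSeq, build GRCm38.p6), were searched on both strands for the E-box CACGTG and the D-box TTATGNAA. Of all 32851 windows 7.15% held this E-box and 3.38% this D-box. Windows were found for 11 of the 13 clock genes looked up, the others being Per2 and Wee1. The E-box was present in Ciart (3 matches), Tef (1 in each of its 2 windows, the second of which is shown) and Cry1 (1), the D-box in Per3 (2 matches), and neither in the windows of Dbp, Usp2, Nr1d2, Hlf, Arntl, Clock and Nfil3. Of the oxidation genes Acaa1b, Aldh3a2, Ech1, Acadl, Eci2 and Slc25a20, only Aldh3a2 held an E-box. None of these 6 held the half-site AGGTCA (16.3% of all windows), nor a pair of half-sites AGGNCA with 1 base between them (0.381%), the spacing that PPAR and RXR bind. A window of Creb3l3 did hold the half-site, as did windows of Nr1d2, Arntl, Clock and Nfil3. The pair was present in a window of Clock. A match is a description of the letters, and elements outside the window were not searched. The windows below are those of the called clock gene, of the other clock genes past the looser threshold that held a match, and of the called oxidation gene with an E-box, with E-boxes and D-boxes in capitals.
Ciart, chr3:95882179-95882478, minus strand: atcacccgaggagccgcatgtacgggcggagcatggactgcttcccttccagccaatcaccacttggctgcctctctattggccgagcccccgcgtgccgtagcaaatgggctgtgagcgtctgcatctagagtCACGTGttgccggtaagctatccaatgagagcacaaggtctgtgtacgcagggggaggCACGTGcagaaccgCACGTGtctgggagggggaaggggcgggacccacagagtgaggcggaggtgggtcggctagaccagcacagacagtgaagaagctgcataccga
Tef, chr15:81811164-81811463, plus strand: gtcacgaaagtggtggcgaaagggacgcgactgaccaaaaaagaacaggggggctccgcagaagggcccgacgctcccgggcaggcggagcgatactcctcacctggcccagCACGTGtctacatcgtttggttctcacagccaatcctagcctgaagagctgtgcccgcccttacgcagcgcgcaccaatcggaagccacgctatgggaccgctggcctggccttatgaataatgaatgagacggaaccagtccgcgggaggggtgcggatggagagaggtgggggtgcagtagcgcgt
Per3, chr4:151044616-151044915, minus strand: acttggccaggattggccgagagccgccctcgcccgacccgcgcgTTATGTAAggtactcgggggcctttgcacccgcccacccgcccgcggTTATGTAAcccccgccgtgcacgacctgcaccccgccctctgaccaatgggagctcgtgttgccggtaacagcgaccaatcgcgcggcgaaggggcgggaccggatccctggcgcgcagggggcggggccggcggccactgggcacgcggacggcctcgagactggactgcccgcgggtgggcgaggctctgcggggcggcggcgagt
Aldh3a2, chr11:61267137-61267436, minus strand: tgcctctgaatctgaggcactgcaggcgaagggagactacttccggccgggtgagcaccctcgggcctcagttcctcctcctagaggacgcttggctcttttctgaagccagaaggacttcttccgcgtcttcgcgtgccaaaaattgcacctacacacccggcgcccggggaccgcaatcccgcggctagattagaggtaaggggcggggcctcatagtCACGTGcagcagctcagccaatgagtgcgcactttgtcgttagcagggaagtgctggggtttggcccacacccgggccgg

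Other genes passed the looser threshold outside these groups. Stbd1, which binds glycogen, differed by 0.71 (adjusted p = 0.049), from 8.09, 8.02, 8.12 and 8.37 to 8.78, 8.88, 9.08 and 8.69. Klf13, a zinc finger transcription factor, differed by 1.08 (adjusted p = 0.049), from 5.80, 5.92, 5.90 and 6.0 to 6.89, 6.72, 7.04 and 7.28. Acvr1b, an activin receptor, read 6.06, 5.94, 5.48 and 5.64 against 6.59, 6.59, 6.48 and 6.91, a difference of 0.87 (adjusted p = 0.046). In wild type Acvr1b fell by 0.78 (adjusted p = 8.05e-04), and the responses differed by -1.65 (adjusted p = 2.89e-05). On the lower side, Desi2 differed by -0.90 (adjusted p = 0.046), from 7.16, 6.93, 6.84 and 7.0 to 6.10, 6.41, 6.19 and 5.64. Desi2 rose by 0.69 in wild type (adjusted p = 0.00362), with a difference of responses of 1.59 (adjusted p = 7.53e-05). Usp6nl, a regulator of Rab GTPases, differed by -1.14 (adjusted p = 0.046) and fell by 1.42 in wild type (adjusted p = 3.80e-05). Nelfa, a subunit of the negative elongation factor, differed by -0.51 (adjusted p = 0.0392), short of the fold of 1.5.

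Slc2a5, the fructose transporter, is named after its values were seen, since its level lay under 6. It read 3.35, 3.00, 3.25 and 3.38 on knockout control arrays and 4.76, 4.16, 4.92 and 4.80 on Wy14643, a difference of 1.41 (adjusted p = 0.02) with no overlap. In wild type Slc2a5 fell by 1.15, and the responses differed by -2.57 (adjusted p = 1.18e-05). Thrsp, a regulator of lipogenesis, ran the same way at a high level. It read 10.03, 11.16, 10.49 and 10.54 against 11.92, 12.01, 12.34 and 12.35, a difference of 1.6 (adjusted p = 0.123) with no overlap. Thrsp fell by 2.29 in wild type (adjusted p = 1.53e-04), and the difference of responses was -3.89 (adjusted p = 4.60e-05).

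Lipid synthesis as a list did not share that direction. Of 29 lipogenesis genes 1 was higher without overlap and 3 lower, with a median of 0.03, and 3 were higher without array 4 of the treated group. The shares over all genes, 3.68% higher and 2.7% lower, are the background for every count in this paragraph. Elovl3, an elongase of very long chain fatty acids, read 10.97, 11.01, 11.08 and 10.82 against 9.95, 9.92, 8.73 and 8.73, a difference of -1.64 (adjusted p = 0.089). Of 28 genes of lipid droplets and lipases 5 were higher without overlap and 0 lower. These counts were 8 and 1 without array 4 of the treated group, and 2 and 0 with the most variable probe set of each gene. Mgll, monoacylglycerol lipase, differed by 0.53 (adjusted p = 0.0911), Lipg, endothelial lipase, by 1.37 (adjusted p = 0.54) and Plin5, a droplet protein, by 0.76 (adjusted p = 0.463), the latter pair with overlap. Of 20 genes of fatty acid uptake and activation 0 were higher without overlap and 1, Fabp7, was lower (-0.72, adjusted p = 0.257), and Vldlr was at 0.71 (adjusted p = 0.533). Of 20 cholesterol synthesis genes 2 were higher without overlap, Stard4 (0.52, adjusted p = 0.0927) and Hsd17b7 (0.37, adjusted p = 0.449). Of 24 bile acid and sterol transport genes 1 was higher and 2 lower. Cyp7a1, the rate-limiting enzyme of bile acid synthesis, differed by 1.33 with overlap (adjusted p = 0.525), and Nr0b2, its repressor, by -0.61 (adjusted p = 0.613). Among 28 lipoprotein and phospholipid genes 1 was higher and 3 lower. Chka, choline kinase α, read 7.74, 7.14, 5.79 and 6.31 against 5.16, 4.45, 3.74 and 2.64, a difference of -2.75 (adjusted p = 0.0922). Angptl8 was at -0.64 (adjusted p = 0.707).

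In each of the 8 lists of foreign compound metabolism positive differences outnumbered negative ones. Of 18 targets of the receptor CAR 15 had a positive difference, with a median of 0.12, and of 35 conjugation enzymes 27, with a median of 0.07. Over all genes 9506 of 18193 had a positive difference, and 2377 of the 5170 with a mean above 6. Without overlap, 3.68% of all genes were higher and 2.7% lower. Of the CAR targets 3 were higher without overlap and 0 lower, and of 10 targets of PXR 1 and 0. Cyp2b10, the classical CAR target, was at 0.00 (95% CI -0.73 to 0.74), and Cyp3a11, the classical PXR target, at 0.07 (95% CI -0.14 to 0.28). Meg3, a transcript that CAR activators raise in mouse liver, was at 0.67 with overlap (adjusted p = 0.388), and Gsta2, a glutathione transferase, at 0.65 (adjusted p = 0.445). Alas1, the first enzyme of heme synthesis, was at 0.91 with overlap (adjusted p = 0.774), and Slco1a4, an organic anion carrier, at 0.57 (adjusted p = 0.285). Cyp1a2, an AhR target, was at 0.22 (adjusted p = 0.413) and Tiparp at -0.35 (adjusted p = 0.74), with 1 of 9 AhR targets higher without overlap. The NRF2 list of 25 held 1 higher and 1 lower, the latter Osgin1 (-0.58, adjusted p = 0.556). The other P450 genes gave 0 higher and 2 lower of 20, among them Cyp2u1 (-0.88, adjusted p = 0.184), and Cyp2c39 was at 0.96 with overlap (adjusted p = 0.558). Conjugation enzymes gave 2 higher without overlap of 35, with Gstt2 at 0.58 (adjusted p = 0.0884) and Sult1c2 at 0.50 (adjusted p = 0.535). Of 11 carboxylesterases 1 was higher, Ces1g (0.83, adjusted p = 0.173), with Ces1d at 0.48 (adjusted p = 0.265). Of 16 drug transporters 3 were higher and 0 lower.

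Positive differences were few in the lists of protein folding and of secreted liver proteins, at 5 of 29 for folding in the endoplasmic reticulum, 3 of 18 for heat shock (median -0.18), 8 of 32 for acute phase and 8 of 32 for complement and coagulation. Of the 29 genes of the endoplasmic reticulum 7 were lower without overlap and 0 higher, with a median of -0.09. Among all genes 2.7% were lower without overlap and 3.68% higher, and among those with a mean above 6, 5.42% and 6.09%. Sdf2l1, a chaperone component, differed by -1.05 (adjusted p = 0.29), Calr, calreticulin, by -0.41 (adjusted p = 0.282) and Pdia6, a disulfide isomerase, by -0.40 (adjusted p = 0.265), and none was called. In wild type 14 of the 29 fell. Heat shock genes gave 1 higher and 2 lower of 18, with Hspb1 at -0.86 (adjusted p = 0.356) and Hspa1b at -0.68 (adjusted p = 0.665), both with overlap. Of 32 acute phase genes 0 were higher without overlap and 6 lower. Lbp, the lipopolysaccharide binding protein, differed by -0.49 (adjusted p = 0.0931), Saa2 by -0.83 (adjusted p = 0.535) and Socs3 by 0.81 (adjusted p = 0.613), the latter pair with overlap. Complement and coagulation genes gave 0 higher and 4 lower of 32, with C6 at -0.39 (adjusted p = 0.546) and C1qa at -0.35 (adjusted p = 0.402), both with overlap. C1qa is also on the Kupffer cell list, 15 of whose 16 markers were lower, and the part of Kupffer cells in the acute phase and complement values was not tested. In wild type 25 of the 32 complement and coagulation genes were called lower, at the same adjusted p and fold as the genes of the endoplasmic reticulum above. The interferon and antigen list gave 0 and 1 of 39, with Gbp6 at -0.72 (adjusted p = 0.533) and Ifi47 at -0.58 (adjusted p = 0.483), both with overlap.

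Cell cycle genes gave 8 higher and 0 lower without overlap of 48, with a median of 0.05. For this and the next lists the shares over all genes were 3.68% higher and 2.7% lower. Tk1, thymidine kinase, was at 0.84 (adjusted p = 0.474) and Gmnn, geminin, at 0.63 (adjusted p = 0.494), and Ccne2, cyclin E2, at 0.69 (adjusted p = 0.269), while Mki67 and Plk1, also higher without overlap, lay near the array medians. In wild type 28 of the 48 were called higher, at an adjusted p under 0.01 and a fold over 1.5, as were 1405 of all 18193 genes. The p53 and growth arrest list gave 2 higher of 22, with Gadd45a at 1.48 (adjusted p = 0.167) and Cdkn1a, the inhibitor p21, at -0.91 with overlap (adjusted p = 0.439). Glucose metabolism gave 3 higher and 3 lower of 25. G6pc, the last enzyme of glucose production, differed by -1.03 (adjusted p = 0.26), Gys2, liver glycogen synthase, by 0.60 (adjusted p = 0.136) and Ppp1r3c, which brings a phosphatase to glycogen, by -1.25 with overlap (adjusted p = 0.486). Amino acid and urea cycle genes gave 6 higher and 6 lower of 39, with Gldc at -0.59 (adjusted p = 0.13) and Kynu at -0.46 (adjusted p = 0.166).

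**Figure D4:**
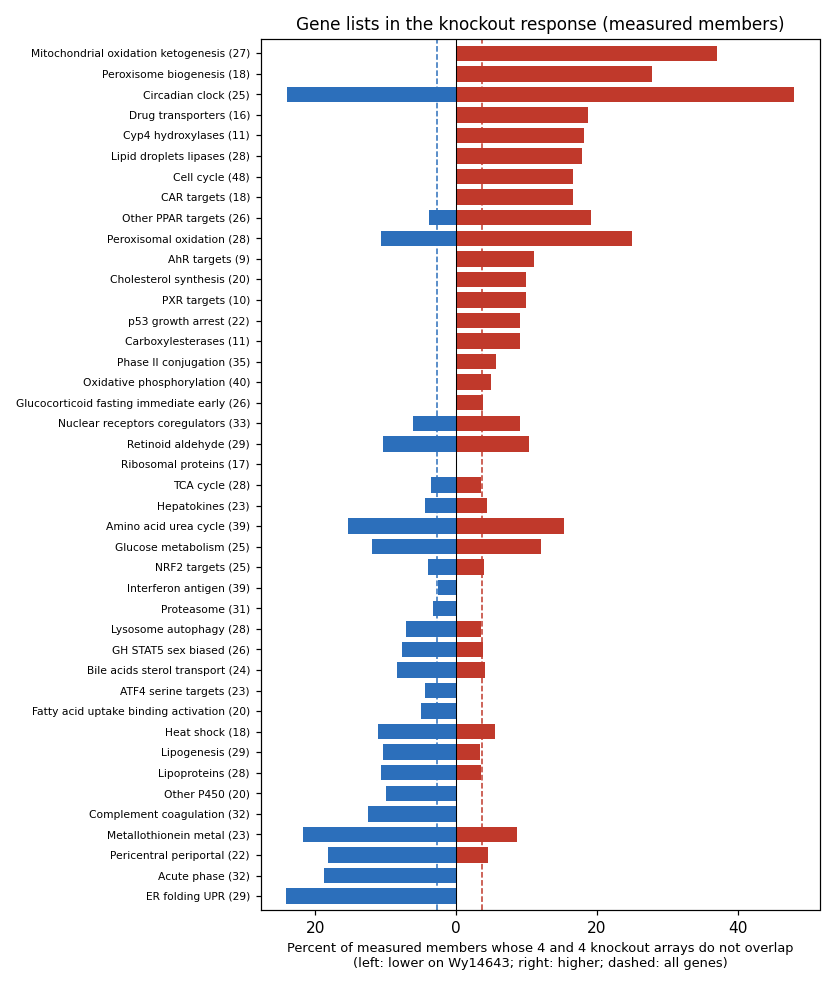
Share of the measured members of 42 gene lists whose 4 treated and 4 control knockout arrays did not overlap, drawn to the right where the treated arrays were higher and to the left where they were lower, with the number measured in parentheses and the shares over all genes as dashed lines. The clock list stands out on both sides, with 48% higher and 24% lower, the mitochondrial oxidation list on the right with 37% and the endoplasmic reticulum list on the left with 24.1%.

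The remaining lists follow, each with its counts of genes higher and lower without overlap, where 3.68% and 2.7% of all genes were. A count of 1 lies near those shares, as in the tricarboxylic acid cycle list at 3.57% each way. Metal and heme genes gave 2 higher and 5 lower of 23, with Slc30a10, a manganese exporter, at -1.49 (adjusted p = 0.339) and Smad7 at -1.13 (adjusted p = 0.297). Zonation genes gave 1 and 4 of 22, with Axin2 at -1.01 (adjusted p = 0.248) and Cdh1 at -0.81 (adjusted p = 0.114). Retinoid and aldehyde genes gave 3 and 3 of 29, or 5 and 3 without array 4 of the treated group, Aldh3a2 among them, with Stra6l at -0.55 (adjusted p = 0.266). Growth hormone and sex-biased genes gave 1 and 2 of 26, hepatokines 1 and 1 of 23, with Inhba at -0.95 (adjusted p = 0.298), glucocorticoid and immediate early genes 1 and 0 of 26, with Egr1 at 1.22 with overlap (adjusted p = 0.672), and ATF4 and serine synthesis genes 0 and 1 of 23, with Asns at -0.86 with overlap (adjusted p = 0.675). Oxidative phosphorylation gave 2 and 0 of 40 and a median of 0.01, with no member beyond -0.19 (Cox7c) or 0.17 (Sdhb). The tricarboxylic acid cycle list gave 1 and 1 of 28, with Pdk1 at 0.30 (adjusted p = 0.583). Ribosomal proteins gave 0 and 0 of 17, with Rpl14 and Rpl27a both at -0.29 (adjusted p = 0.663 and 0.642). The proteasome gave 0 and 1 of 31, with Psmd3 at -0.25 (adjusted p = 0.605) and Psmc4 at -0.21 (adjusted p = 0.576). Lysosome and autophagy genes gave 1 and 2 of 28, with Bnip3 at 0.49 (adjusted p = 0.249) and Lipa at -0.36 (adjusted p = 0.35). Apart from the called genes already named, no member of these lists was called.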

How the data were processed

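Liver RNA of single mice was hybridised to 16 arrays. The deposited values are intensities, 1 per probe set and array, which the authors made with GCRMA (version 2.20 per the submitters' processing notes). This method subtracts a background predicted from probe sequence, normalizes the arrays to each other and compresses dim probe sets towards a floor. The deposited values were not left in 1 distribution. The upper quartile of intensity was 22.1 on array 4 of the treated knockouts and 25.9 to 27.5 on the other knockout arrays. The scale is not stated, and the values were read as linear from their range, so log2 was taken once with no offset. Groups came from the sample titles.

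A limma model (version 3.58.1, R 4.3.3) with 1 mean per group was fitted to all 16 arrays, and contrasts were adjusted by Benjamini-Hochberg over 45037 probe sets. A call needed an adjusted p under 0.01 and a fold over 1.5. On simulated data with 50 probe sets changed at each size, 52% of 1.6-fold and 76% of 2-fold changes were called in the knockout contrast. There 2 unchanged probe sets were called too. The changed probe sets all had a knockout control mean above 4, and the noise was normal. The adjusted p depends on how many probe sets change, so these shares cannot be carried over to the real contrast or to dimmer probe sets. Probe sets were named from the platform annotation, and those of several genes were left unnamed. Genes were named by rule: called, not overlapping and with a higher mean of at least 6, filled up to 12 per direction from an adjusted p under 0.05 and then from called genes under that level, with the PPAR genes and the leading members of each list. Genes outside the rule were picked from those lists with their values known. The lists, members and rules were chosen with earlier results of these data known. Dim filters, other normalizations, an offset of 16, array weights, other moderation, fewer arrays, a replicate block and other thresholds were tried as alternatives.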

Additional observations from a re-analysis of the deposited data

Results flagged for a closer look

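Among the genes named above, 60 of 133 differed between the genotypes in their response by the interaction test, against 1820 of all 18193 genes. Many of the 133 were named for a large difference or a large wild-type response, so these shares do not compare like with like. The values below are the wild-type difference minus the knockout difference (log2). Where the wild-type difference was positive and that of the knockout positive or 0.00, it was 1.97 for Acaa1a, 2.59 for Aldh3a2, 1.57 for Ech1, 1.29 for Acadl, 1.37 for Eci2, 1.42 for Slc25a20, 3.98 for Slc22a5 and 1.70 for Eci1. In the same class it was 1.0 for Acadvl, 1.33 for Acadm, 1.75 for Decr1, 1.73 for Hadha, 6.71 for Acot3, 2.96 for Ehhadh, 1.32 for Pex19 and 3.16 for Pex11a. In the same class it was 7.68 for Cyp4a31, 8.12 for Fabp3, 5.26 for Vnn1, 7.01 for Mogat1, 2.43 for Mgll, 3.23 for Vldlr and 1.14 for Gstt2. Where the wild-type difference was negative and that of the knockout negative or 0.00, it was -1.89 for Esr1, -3.15 for Angptl8, -2.65 for Cyp2b10, -1.83 for Osgin1, -1.06 for Pdia6, -2.26 for C6, -1.65 for Ifi47 and -3.46 for Ppp1r3c. In the same class it was -0.87 for Kynu, -1.18 for Cdh1 and -1.74 for Stra6l. The classes go by sign alone. Some knockout differences were near 0, such as -0.01 for Cidec and 0.07 for Cyp3a11, each with a 95% CI that included 0. Where the signs were opposite, the difference of responses was 4.73 for Crat, 1.5 for Hacl1, 3.39 for Acot5, 6.33 for Cidec, 9.22 for Pdk4, -1.62 for Bhlhe40, -1.65 for Acvr1b and 1.59 for Desi2. In the same class it was -2.57 for Slc2a5, -3.89 for Thrsp, -1.0 for Stard4, -1.33 for Cyp3a11, -4.68 for Meg3, -2.84 for Gsta2, -5.33 for Slco1a4 and -2.30 for Cyp1a2. In the same class it was -1.46 for Sult1c2, 4.78 for Hspb1, 3.61 for Hspa1b, 1.24 for Lbp, -2.27 for Gadd45a, 2.94 for Cdkn1a, 1.18 for Rpl14 and 0.92 for Psmd3. In the same class it was 0.87 for Psmc4 and 1.0 for Lipa.

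Of 266 groups of 4 knockout arrays checked for a single array far from the other 3 by Dixon's criterion, 12 passed the 95% critical value, and chance alone gives about 1 in 20. Ppard was lowest on control knockout array 4, at 2.40. Sdc1 was lowest on treated knockout array 1, at 10.12. Crat was lowest on treated knockout array 4, at 6.05. Cidec was highest on treated knockout array 4, at 2.56. Pdk4 was highest on control knockout array 1, at 8.82. Angptl4 was highest on treated knockout array 3, at 7.39. Nfil3 was lowest on treated knockout array 3, at 4.44. Bhlhe40 was lowest on control knockout array 3, at 8.04. Mgll was lowest on control knockout array 4, at 8.31. Plin5 was highest on control knockout array 2, at 3.80. Tk1 was highest on treated knockout array 4, at 8.28. Pdk1 was lowest on control knockout array 3, at 7.71.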

How the results depend on the processing

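The count of 6 called probe sets, all higher on Wy14643, moved with the settings. It was 14 higher and 6 lower with trended and robust moderation (6 of the 14 shared with the reported calls), and 1 and 0 with only the 8 knockout arrays. At an adjusted p under 0.05 it was 1 higher with treat, and 21 and 7 with the ordinary test and a fold over 1.5. A mean above 4 gave 8 higher and 1 lower. Leaving out 1 array at a time gave 2 to 10 higher and 0 to 2 lower. Aldh3a2 and Acadl lost their call with median centring, and Aldh3a2 also with log2(value + 16). With a mean above 6, wild type gave 1082 higher and 1335 lower and the interaction 1012 higher, since fewer probe sets were tested.

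Same-numbered knockout arrays of the 2 diets deviated together at correlations of 0.02, -0.15, 0.04 and 0.07, so the numbers were not taken to pair the mice. With the replicate block 4 probe sets were higher and 2 lower, and 4 of these were among the 6 reported.

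Signs turned only for differences near 0. Median centring gave -0.0208 for Hadha and -0.0176 for Cyp2b10, array weights -0.10 for Cyp2b10, and log2(value + 16) 0.0011 for Cidec. Leaving out single arrays, the difference ranged from -0.27 to 0.0292 for Ppard, -0.0300 to 0.0266 for Hadha, -0.0039 to 0.30 for Fabp3, -0.13 to 0.0422 for Cidec, -0.0594 to 0.23 for Vnn1, -0.18 to 0.44 for Nr1d1, -0.27 to 0.33 for Cyp2b10 and -0.0044 to 0.14 for Cyp3a11. The cause was not tested. The list counts without array 4 of the treated knockouts were chosen after the data were seen. Apart from the peroxisome biogenesis and lipid droplet lists, neither they nor the most variable probe set per gene moved a list's count by more than 2 genes. With 4 arrays a group the number of arrays limits the precision, and for dim probe sets the signal over background does too.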
